A study of Mus musculus with 201 samples.

Results

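Srf, Elk1, Elk3, Elk4, Mef2a, Mef2b, Mef2c and Mef2d encode transcription factors that act upstream of activity-regulated genes in neurons. They were chosen by name and not by a rule on their values, though with earlier results of these data known. They are 8 of 42983 gene symbols listed in at least 1 of the 3 deposited expression tables. All 8 had a row in every table. RNA was sequenced from 201 single cells or nuclei of mouse dentate granule neurons, the principal cells of the dentate gyrus of the hippocampus.

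Whole cells came from Prox1-GFP mice, in which the Prox1 promoter drives a fluorescent protein, and were released with papain and sorted for GFP. Mice had been given saline (47 cells) or 50 mg/kg of pentylenetetrazole, the seizure-inducing GABA(A) receptor antagonist abbreviated PTZ (35 cells), and were killed 1 h later. Tissue of 2 mice was pooled in each treatment group, and not every PTZ cell that the study amplified is analysed here. Nuclei came from wild-type C57BL/6 mice aged 8 weeks by Dounce homogenization, without protease. NE nuclei came from animals placed for 15 min in an unfamiliar environment and killed after 1 h back in the home cage. They were sorted as PROX1+FOS+ or PROX1+FOS- (48 each). HC nuclei (23) came from home cage animals and were NeuN+ and Prox1+; how many animals gave NE or HC nuclei is not in the labels. NE nuclei and whole cells were amplified by Smart-seq2 and HC nuclei on a Fluidigm C1 chip, so that values of the 3 tables stand side by side and were not compared by a test. All whole cells were amplified at 10 µM template-switching oligo and an ERCC spike-in dilution of 1:2000. NE nuclei were split over 1 or 10 µM and 1:200 or 1:2000.

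SRF binds the CArG box of immediate-early and actin cytoskeleton genes. The ternary complex factors ELK1, ELK3 and ELK4 sit beside it on DNA and respond to phosphorylation by ERK, whereas myocardin-related factors respond to actin. The MEF2 proteins bind an A/T-rich element, are held in check by class IIa histone deacetylases, and are released by calcium signals through calcineurin and CaM kinases. Much of this control acts on protein that is already present, and the values below are RNA only.

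Sequence around the start sites shows which of these genes carry such elements themselves. In RefSeq windows of 250 bases before to 50 bases after each start (GRCm38.p6, all 8 factors matched), the CArG box was found in 1.63% and the MEF2 consensus in 3.19% of 32851 windows. Each consensus has 10 bases and is its own reverse complement, so that a single search covers both strands. Among the 8 factors, Srf alone held a CArG box and Mef2a alone held the MEF2 consensus. Of 11 genes linked to SRF as targets that had a window, 4 held a CArG box (Egr2, Actg1, Vcl and Dusp5), and of 10 genes linked to MEF2, Klf2 and Jun held the MEF2 consensus. The lines below give Srf (chr17:46556183-46556262, minus strand, both boxes), Mef2a (chr7:67372841-67372870, minus strand) and, for the target genes to which their values are set below, Egr2 (chr10:67537787-67537816, plus strand), Actg1 (chr11:120348566-120348595, minus strand), Vcl (chr14:20929161-20929190, plus strand), Dusp5 (chr19:53529063-53529092, plus strand) and Jun (chr4:95052236-95052265, minus strand), with the element in capitals.
Srf: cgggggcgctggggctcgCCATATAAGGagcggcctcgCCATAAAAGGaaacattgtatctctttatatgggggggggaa
Mef2a: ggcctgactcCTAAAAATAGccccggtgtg
Egr2: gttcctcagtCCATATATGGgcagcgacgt
Actg1: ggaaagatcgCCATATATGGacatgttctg
Vcl: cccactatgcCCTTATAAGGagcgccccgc
Dusp5: CCATATTTGGCCTTATATGGgcactcacgt
Jun: acatcatgggCTATTTTTAGggattgactg
The boxes of Srf began 82 and 62 bases before its start, and the element of Mef2a began 2 bases before its start and ran across it. A match describes the letters in the window only.

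After exclusion of low-quality libraries, 30 PTZ cells, 38 saline cells, 40 FOS+ nuclei, 41 FOS- nuclei and all 23 HC nuclei remained. The total expected count per library, the estimate of reads assigned to genes, ranged from 67212 to 5129240 in PTZ cells, 401331 to 2696040 in saline cells, 80096 to 1035170 in FOS+ nuclei, 63775 to 1060520 in FOS- nuclei and 107647 to 278779 in HC nuclei. The median number of genes with a level above 1 TPM (transcripts scaled to a fixed total, corrected for length), taken here as detection, lay between 5759.5 and 6446.5 in whole cells and NE nuclei and was 3213 in HC nuclei. At least 1 of 6 granule cell markers was detected in every library. Genes listed as markers of other cells were also found. Gad1 (GABA neurons) was detected in 21 of 30 PTZ cells, 33 of 38 saline cells, 19 of 40 FOS+ and 15 of 41 FOS- nuclei. Gad2, Slc32a1, Sst and Pvalb, also markers of GABA neurons, were detected in 0 of 30 PTZ and 0 of 38 saline cells. In FOS+ and FOS- nuclei Gad2 was detected in 14 and 7, Sst in 4 and 5, Slc32a1 in 0 and 2 and Pvalb in 0 and 0. Cx3cr1 (microglia) was detected in 29 FOS+ and 33 FOS- nuclei. Cldn5 (endothelium), C1qa and Tmem119 (microglia) stood at 0 in every whole cell and NE nucleus. Pecam1, also an endothelial marker, was detected in 11 PTZ and 18 saline cells and in 17 FOS+, 19 FOS- and 19 of 23 HC nuclei. Flt1 was detected in 2 FOS+ nuclei and Tek in 2 nuclei of each NE sort. No animals are named for single libraries, so that each group counts as 1 sample: intervals below cover counting error only (95%, exact binomial for shares and exact Poisson for summed counts), PCR copies were counted as reads, since the libraries carry no molecular identifiers, and no p-value was computed.

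The factors fell into a commonly and a rarely detected set. Elk1, Mef2a, Mef2c and Mef2d were each detected in at least 73.7% of saline cells and at least 51.2% of FOS- nuclei. Srf, Elk3 and Elk4 were detected in a minority of cells of every group, and Mef2b, a family member best known from lymphocytes, in a single cell. In saline cells the mean of log2(TPM + 1) was 6.33 ± 2.39 (SD over 38 cells) for Mef2c, 5.98 ± 1.94 for Mef2d, 5.13 ± 2.68 for Elk1, 4.44 ± 3.05 for Mef2a, 2.04 ± 2.67 for Elk4, 1.95 ± 2.46 for Srf and 0.47 ± 1.34 for Elk3. Neighbours in this order differed by less than the larger of their SDs. By mean TPM, a level corrected for transcript length, Mef2c stood higher than 92.7% of the genes detected in saline cells, Srf higher than 56.5% and Elk3 higher than 34.2%.

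**Figure D1:**
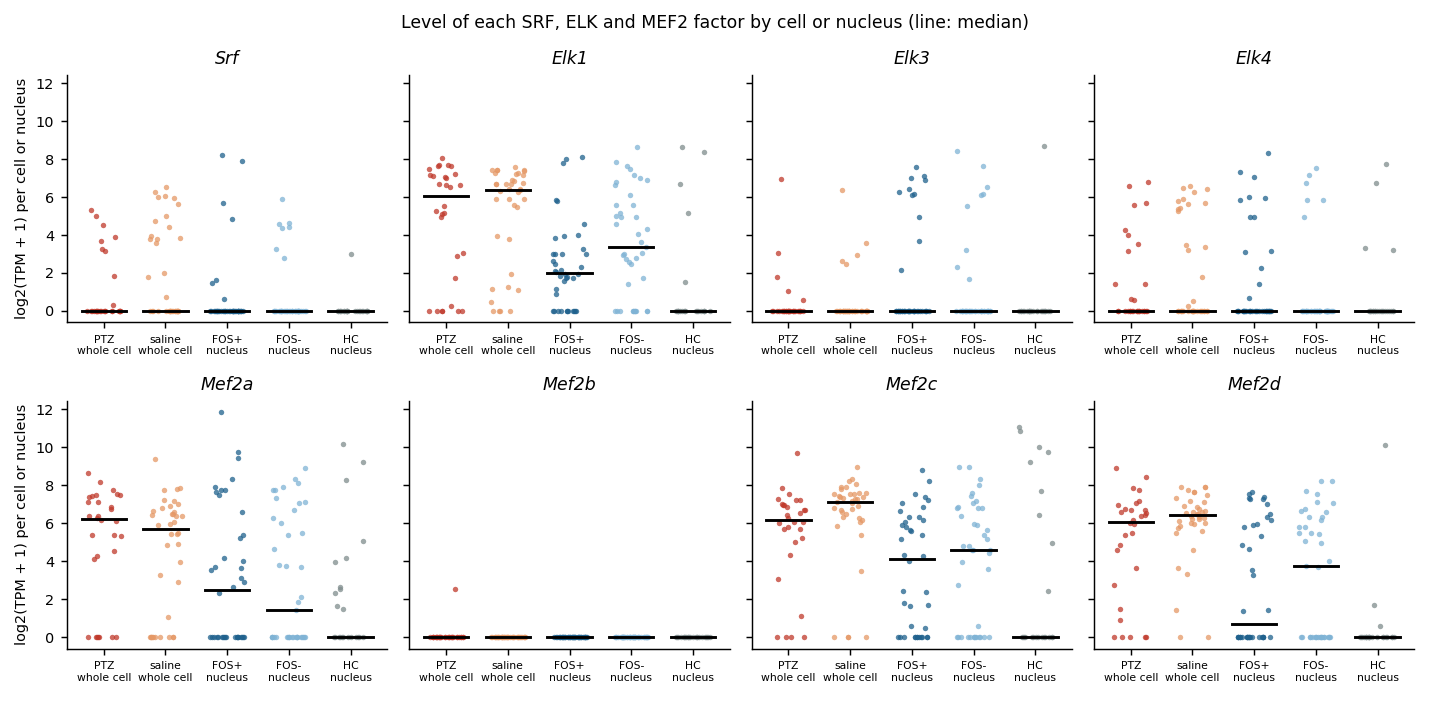
Level of each of the 8 factors as log2(TPM + 1) in every cell or nucleus kept, with 1 point per library and a line at the median, in PTZ and saline whole cells, FOS+ and FOS- NE nuclei and HC nuclei. The medians of Srf, Elk3, Elk4 and Mef2b lie at 0 in all 5 groups, whereas those of Elk1, Mef2a, Mef2c and Mef2d lie above 0 in all groups but HC.

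Srf, the DNA-binding partner shared by the ternary complex and the myocardin-related factors, was seen more often in whole cells than in nuclei of all amplification conditions together. In NE nuclei amplified at the oligo concentration and spike-in dilution of the whole cells, it was detected in 7 of 22 (31.8%, interval 13.9 to 54.9). By group, Srf was detected in 16 of 38 saline cells (42.1%, interval 26.3 to 59.2), 8 of 30 PTZ cells (26.7%, 12.3 to 45.9), 7 of 41 FOS- nuclei (17.1%, 7.15 to 32.1), 6 of 40 FOS+ nuclei (interval 5.71 to 29.8%) and 1 of 23 HC nuclei (4.35%, 0.11 to 21.9). The lowest and the median value were 0 TPM in each group, and the highest was 91.8 TPM in saline cells, 38.96 in PTZ cells, 58.8 in FOS- nuclei, 295.7 in FOS+ nuclei and 7.07 in HC nuclei. The groups overlapped, since more than 50% of the libraries of each group were at 0. Summed over a group, Srf stood at 25.1 CPM (counts scaled to a fixed total, interval 23.6 to 26.6) in saline cells and 16.2 CPM (14.98 to 17.4) in PTZ cells. In nuclei a single library held 47.1% of the Srf counts of the FOS+ group and another 56.7% of those of the FOS- group.

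Elk1, Elk3 and Elk4 encode the ternary complex factors. Elk1 was the one most often detected, in 33 of 38 saline cells, 23 of 30 PTZ cells, 30 of 41 FOS- nuclei, 28 of 40 FOS+ nuclei and 5 of 23 HC nuclei. Its median was 82.1 TPM in saline cells (lowest 0, highest 192.9), 68.3 in PTZ cells (0 to 266.7), 9.44 in FOS- nuclei (0 to 390.7), 3.04 in FOS+ nuclei (0 to 274.8) and 0 in HC nuclei (0 to 390.7). The medians of both NE sorts lay below those of the whole cells, and all groups overlapped.

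Elk4 was detected in 15 of 38 saline cells, 10 of 30 PTZ cells, 6 of 41 FOS- nuclei, 12 of 40 FOS+ nuclei and 4 of 23 HC nuclei, with a median of 0 TPM in each group and a highest value of 96.4, 111.4, 180.2, 323.5 and 213.9 TPM in that order. Elk3, also known as Net, was the one ternary complex factor detected more often in NE nuclei than in whole cells. It was found in 11 of 40 FOS+ nuclei (27.5%, 14.6 to 43.9) and 9 of 41 FOS- nuclei (21.95%, 10.6 to 37.6), against 5 of 38 saline cells (13.2%, 4.41 to 28.1) and 4 of 30 PTZ cells (13.3%, 3.76 to 30.7). Where detected, its median was 77.3 TPM in FOS+ and 68.9 TPM in FOS- nuclei, but 6.62 TPM in saline and 4.88 TPM in PTZ cells. In NE nuclei amplified as the whole cells were, Elk3 was detected in 12 of 22, and at 1 µM oligo in 1 of 18 and 2 of 20. The whole-cell and nuclear libraries also differed in mouse strain, dissociation, compartment and read type, and the parts of these cannot be told apart. A single HC nucleus held Elk3, at 417.2 TPM.

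Mef2c, Mef2a and Mef2d encode the MEF2 proteins of neurons. Mef2c was detected in 34 of 38 saline cells (89.5%, 75.2 to 97.1), 26 of 30 PTZ cells (86.7%, 69.3 to 96.2), 27 of 41 FOS- nuclei (65.9%, 49.4 to 79.9), 26 of 40 FOS+ nuclei (65.0%, 48.3 to 79.4) and 9 of 23 HC nuclei (39.1%, 19.7 to 61.5). Its median was 140.8 TPM in saline cells, 72.5 in PTZ cells, 23.3 in FOS- nuclei, 16.5 in FOS+ nuclei and 0 in HC nuclei, where the highest nucleus reached 2118.8 TPM. In the HC nuclei in which it was detected its median was 608.2 TPM.

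Mef2a was detected in 28 of 38 saline cells, 23 of 30 PTZ cells, 21 of 41 FOS- nuclei, 21 of 40 FOS+ nuclei and 11 of 23 HC nuclei. Its median was 51.4 TPM in saline cells, 74.5 in PTZ cells, 1.67 in FOS- nuclei and 4.69 in FOS+ nuclei, and the highest single value among all factors, 3704.3 TPM, was Mef2a in 1 FOS+ nucleus. Mef2d was detected in 36 of 38 saline cells (94.7%, 82.3 to 99.4) and 24 of 30 PTZ cells (80.0%, 61.4 to 92.3), in 22 of 41 FOS- and 20 of 40 FOS+ nuclei, and in 2 of 23 HC nuclei (8.70%, 1.07 to 28.04). Mef2d was therefore among the most widely detected factors of whole cells and, with Srf, Elk3 and Mef2b, among the 4 least detected of HC nuclei.

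Mef2b was detected in 1 PTZ cell (18 counts, 4.87 TPM), in 0 of 38 saline cells, 0 of 40 FOS+ nuclei, 0 of 41 FOS- nuclei and 0 of 23 HC nuclei. Counted as 3 of the total, a count of 0 allows a share of up to 7.89%, 7.50%, 7.32% and 13.04% in that order, and the exact 95% interval reaches 9.25%, 8.81%, 8.60% and 14.8%. That PTZ cell had the most genes detected of all whole cells (12220, against a median of 5759.5 in its group) and held 91 counts of 2310045N01Rik, the earlier symbol of Borcs8, whose gene overlaps Mef2b on the same strand.

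**Figure D2:**
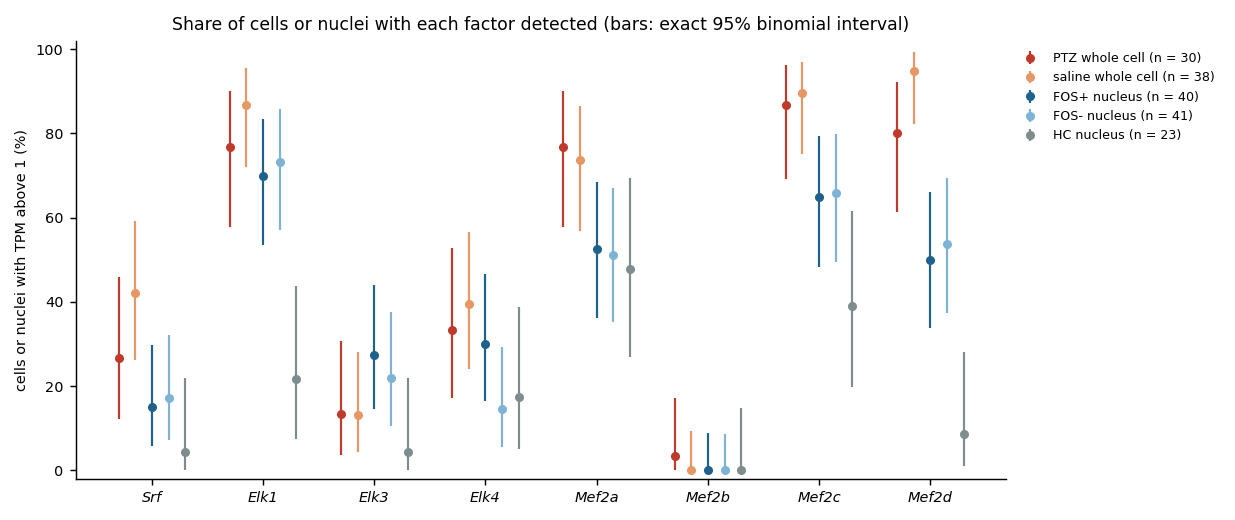
Share of cells or nuclei (in percent) in which each factor exceeded 1 TPM, with bars for the exact 95% binomial interval, in 30 PTZ and 38 saline cells, 40 FOS+, 41 FOS- and 23 HC nuclei. Intervals of PTZ and saline, and of FOS+ and FOS-, overlap for every factor, and Mef2d ranges from 94.7% of saline cells to 8.70% of HC nuclei.

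FOS+ and FOS- nuclei came from the same preparation and show whether the factors' own RNA differed between nuclei sorted as FOS+ and as FOS-. The study left FOS+ nuclei that grouped with FOS- nuclei by RNA out of its own comparison. Here no nucleus was left out on that ground. At the depth of the libraries as deposited, for none of the 7 factors with enough counts (at least 1 count in 5 nuclei, all but Mef2b) did it differ past the limits used: a 2-fold ratio of the CPM summed over each group, or 20 percentage points in the share of nuclei with detection. Among all genes tested, 17.9% were 2-fold higher and 28.1% were 2-fold lower in FOS+, while 4.3% were 20 points higher and 3.69% were 20 points lower. The log2 ratio of pooled CPM, FOS+ over FOS-, was 0.52 for Srf, 0.34 for Elk3, 0.07 for Mef2d, 0.01 for Elk4, -0.07 for Mef2c, -0.21 for Mef2a and -0.59 for Elk1. Their median was 0.01, beside -0.20 over 16393 genes, of which 54.0% lay within 2-fold.

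The ratio of Srf rested on few nuclei. Pooled Srf was 22.5 CPM (20.1 to 25.1) in FOS+ and 15.7 CPM (13.7 to 17.9) in FOS- nuclei, a 1.44-fold ratio, while its share differed by -2.07 points (FOS+ minus FOS-). Leaving out 1 FOS- nucleus, which held 124 Srf counts, raised the log2 ratio to 1.64, and leaving out the FOS+ nucleus with the fewest genes (1373) brought it to -0.06. The lowest value with 1 nucleus left out was -0.37. Likewise the ratio of Elk3 went from 0.34 to 2.23 without a FOS- nucleus that held 190 of its counts.

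Elk1 was the factor with the lowest FOS+ to FOS- ratio, and its difference in share depended on the limit of detection. The pooled value was 57.1 CPM (53.2 to 61.1) in FOS+ and 86.1 CPM (81.3 to 91.1) in FOS- nuclei, 1.51-fold higher in FOS-, and the share above 1 TPM differed by -3.17 points. Above 5 TPM, Elk1 was found in 15 of 40 FOS+ nuclei (37.5%, 22.7 to 54.2) and 26 of 41 FOS- nuclei (63.4%, 46.9 to 77.9), a difference of -25.9 points, and above 20 TPM in 6 and 17. At 5 counts or more the difference was -21.2 points. With every nucleus thinned to 50000 reads in a single random draw, Elk1 passed both limits, with a log2 ratio of -1.26 and a share difference of -30.9 points. Detection in the thinned nuclei meant any count, not a level above 1 TPM. The log2 ratio was -1.12, past 2-fold, without 1 FOS+ nucleus that held 279.04 of its counts. It was negative in 3 of 4 amplification conditions, at -4.80, -1.59 and -0.38, and 0.32 in the fourth. The conditions were the combinations of template-switching oligo (TSO, 1 or 10 µM) and ERCC spike-in dilution (1:200 or 1:2000). In the same order the share above 1 TPM differed by 20, -43.6, 0 and 17.5 points. Where the ratio was -4.80, Elk1 was thus detected in 8 of 10 FOS+ and 6 of 10 FOS- nuclei.

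Elk4 had the largest difference in share, 12 of 40 FOS+ nuclei (interval 16.6 to 46.5%) against 6 of 41 FOS- nuclei (14.6%, 5.57 to 29.2), or 15.4 points, with pooled values of 15.7 and 15.6 CPM. The summed levels agree within counting error. The difference in share was 5.37 points with detection at 5 counts. By condition it was 40 points (4 of 10 against 0 of 10 nuclei) at 1 µM TSO and 1:200. At 10 µM and 1:200 it was 25.5 points (5 of 11 against 2 of 10). It was 2.5 points (1 of 8 against 1 of 10) at 1 µM and 1:2000, and -9.09 points (2 of 11 against 3 of 11) at 10 µM and 1:2000. The median among nuclei with Elk4 was 43.3 TPM in FOS+ and 80.9 TPM in FOS-.

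Mef2c stood at 164.8 CPM (158.3 to 171.6) in FOS+ and 172.9 CPM (166.1 to 179.9) in FOS- nuclei, Mef2d at 114.1 and 108.8 CPM, and Mef2a at 133.4 and 154.2 CPM. Their shares differed by -0.85, -3.66 and 1.28 points. Scaling the group sums by TMM factors moved every FOS+ to FOS- log2 ratio up by 0.25, which turned Mef2a from -0.21 to 0.04 and Mef2c from -0.07 to 0.18. No direction is given for these 3 genes. In the mean of TPM, which weights each nucleus equally, Mef2a was at 1.45 (log2), through the nucleus at 3704.3 TPM.

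No factor was on the same side in all 4 amplification conditions. This was so for 7.79% of 11425 genes with a ratio in every condition that were higher and for 12.1% that were lower in FOS+. Srf, Elk4, Mef2a and Mef2c had a positive ratio in 2 of 4 conditions, Mef2d in 1 of 4 and Elk3 in 2 of the 3 that gave one. With 8 to 11 nuclei per sort in a condition, the ratios of Mef2a reached 4.41 and -3.26. Those of Srf reached at least 5.04, with no Srf count in the FOS- nuclei of that condition, and -3.96, with 6 counts in FOS+.

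**Figure D3:**
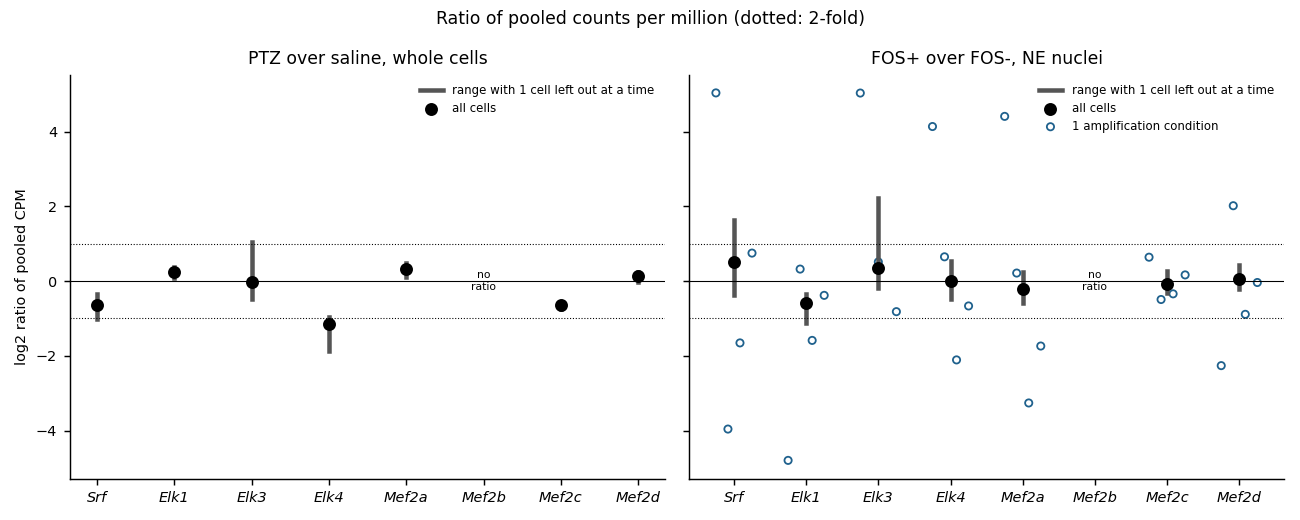
Log2 ratio of pooled CPM for each factor, PTZ over saline (left) and FOS+ over FOS- (right), with black points for all cells, grey bars for the range when 1 cell is left out at a time, open circles for single amplification conditions and dotted lines at 2-fold. Elk4 in whole cells is the one black point past a dotted line, at -1.15, and the open circles of most factors fall on both sides of 0. Mef2b has no ratio drawn.

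Oligo concentration and spike-in dilution went with how often some factors were seen. Over both sorts, Elk3 was detected in 12 of 22 nuclei (54.5%, 32.2 to 75.6) at 10 µM TSO and 1:2000, against 5 of 21, 1 of 18 and 2 of 20 in the other 3 conditions. Mef2d was detected in 18 of 22 nuclei there, in 13 of 21 at 10 µM and 1:200, in 7 of 18 at 1 µM and 1:2000 and in 4 of 20 at 1 µM and 1:200. Srf was detected in 7, 3, 2 and 1 nuclei in the same order. Elk4 did not follow it, with 5 of 22, 7 of 21, 2 of 18 and 4 of 20 nuclei. The condition with 10 µM and 1:2000 had the most genes per nucleus (median 7566.5) but not the highest total count (334729, against 606777 at 1 µM and 1:2000). All whole cells were amplified at 10 µM and 1:2000.

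Seizure treatment was compared with saline in whole cells. Of the 7 factors tested there, 1 was past 2-fold: Elk4, lower in PTZ cells. Over all genes 13.9% were 2-fold lower and 13.2% were 2-fold higher in PTZ. No factor passed 20 points in either direction, where 3.09% of all genes were higher and 4.33% were lower. The median log2 ratio of the factors was -0.01, beside -0.04 over 14459 genes.

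Elk4 stood at 15.3 CPM (14.1 to 16.5) in PTZ and 33.9 CPM (32.2 to 35.8) in saline cells, 2.22-fold higher in saline. Its share differed by -6.14 points (PTZ minus saline), and the groups overlapped. The log2 ratio of -1.15 ranged from -1.87 to -0.96 with 1 cell left out at a time, with the lowest value without a PTZ cell that held 258 of its 640 counts in that group. Without the PTZ cell with the most genes the ratio was -0.97, and in the mean of TPM -0.63, both inside 2-fold.

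Srf was 1.55-fold and Mef2c 1.57-fold higher in saline cells by pooled CPM, with log2 ratios of -0.63 and -0.65. For Srf the leave-one-out range was -1.02 (without a PTZ cell with 180 counts, and then past 2-fold) to -0.34. Its share differed by -15.4 points, or -22.1 points at 5 counts or more, which is past the limit. In the mean of TPM the log2 ratio of Srf was -1.66, past 2-fold. For Mef2c the range was narrow, -0.75 to -0.56, with 208.6 CPM (204.2 to 213.0) in PTZ and 327.3 CPM (321.8 to 332.9) in saline cells. The share of Mef2d differed by -14.7 points, with a log2 ratio of 0.12 by pooled CPM and -0.13 by mean TPM, so that no direction is given.

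Elk1 and Mef2a had log2 ratios of 0.25 and 0.32, and Elk3, with 65 counts in each group, -0.01. The Elk3 ratio became 1.04 without a saline cell that held 34 of them, and 2.34 with every cell thinned to 50000 reads.

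Genes listed as markers of other hippocampal neurons also differed between the treatments. Prox1 was detected in all 30 PTZ and all 38 saline cells. Of 4 CA pyramidal markers, all 4 were detected in both groups, with a summed level from 0 to 323.2 TPM in PTZ and from 0 to 906.5 TPM in saline cells. Grik4 was detected in 18 of 30 PTZ and 11 of 38 saline cells, Fibcd1 in 12 and 5 and Wfs1 in 11 and 7, whereas Nr4a2 was detected in 14 and 22. Grik4 was also detected in 25 of 40 FOS+ and 29 of 41 FOS- nuclei, all sorted as PROX1+. Its detection alone therefore does not mark another cell type here. Calb2, the mossy cell marker that was detected, was found in 7 PTZ cells and 1 saline cell (summed level 0 to 1489.5 and 0 to 361.4 TPM), and Drd2 had no count in either group. Their part in the differences of Elk4, Srf and Mef2c was not tested. The treatment, the pool of mice and the closing tag of the library titles, taken here as the plate, coincide and cannot be told apart.

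The genes around the factors differed from the factors themselves in the NE nuclei. Of 15 measured genes linked to SRF as targets, 13 were 2-fold higher and 0 were 2-fold lower in FOS+ nuclei, 8 of them also past 20 points, with a median log2 ratio of 5.72. For the 11 measured genes linked to MEF2, the counts were 6, 0 and 4, with a median of 1.44. Over all genes tested, 17.9% were 2-fold higher and 28.1% were 2-fold lower in FOS+, with a median of -0.20. Nr4a1 and Arc stand in both lists, Fos encodes the protein on which the nuclei were sorted, and the lists were chosen with the induction of many of these genes in these nuclei already known, so that they are no independent evidence of a direction.

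Arc, which acts in the synaptic scaling of AMPA receptors, was detected in 31 of 40 FOS+ and 1 of 41 FOS- nuclei, with a median of 429.7 TPM (highest 2052.6) and 0 TPM (highest 1.94). Fosb, a partner of JUN proteins in AP-1, was detected in 19 and 2, Junb, another AP-1 subunit, in 18 and 5, and Egr4, a zinc-finger factor, in 13 and 2. Pooled Fosb was at least 727.9-fold and Egr4 at least 666.8-fold higher in FOS+, with a floor of 3 counts over the FOS- group. Of the MEF2-linked genes, Bdnf, the neurotrophin, was detected in 35 and 16 nuclei (17.6-fold by pooled CPM), Homer1, a scaffold of postsynaptic glutamate receptors, in 37 and 22 (15.9-fold), and Nr4a1, an orphan nuclear receptor, in 13 and 4. All 7 of these genes were higher in FOS+ in 4 of 4 amplification conditions.

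The genes whose elements are printed above differed widely among themselves. Pooled Egr2 was 92.8-fold (7 counts in FOS-) and Dusp5 at least 128.7-fold higher in FOS+ nuclei, Vcl, the adhesion protein vinculin, 2.10-fold and Actg1, a cytoplasmic actin, 1.15-fold. Srf, with 2 such boxes, was at 1.44-fold. Among holders of the MEF2 consensus, Jun was 1.42-fold higher in FOS+ by pooled CPM and was detected in 29 and 14 nuclei, a difference of 38.4 points. Klf2, a zinc-finger factor, was detected in 0 FOS+ and 2 FOS- nuclei, with 11.93 counts in all, and Mef2a was detected in 21 nuclei of each sort.

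**Figure D4:**
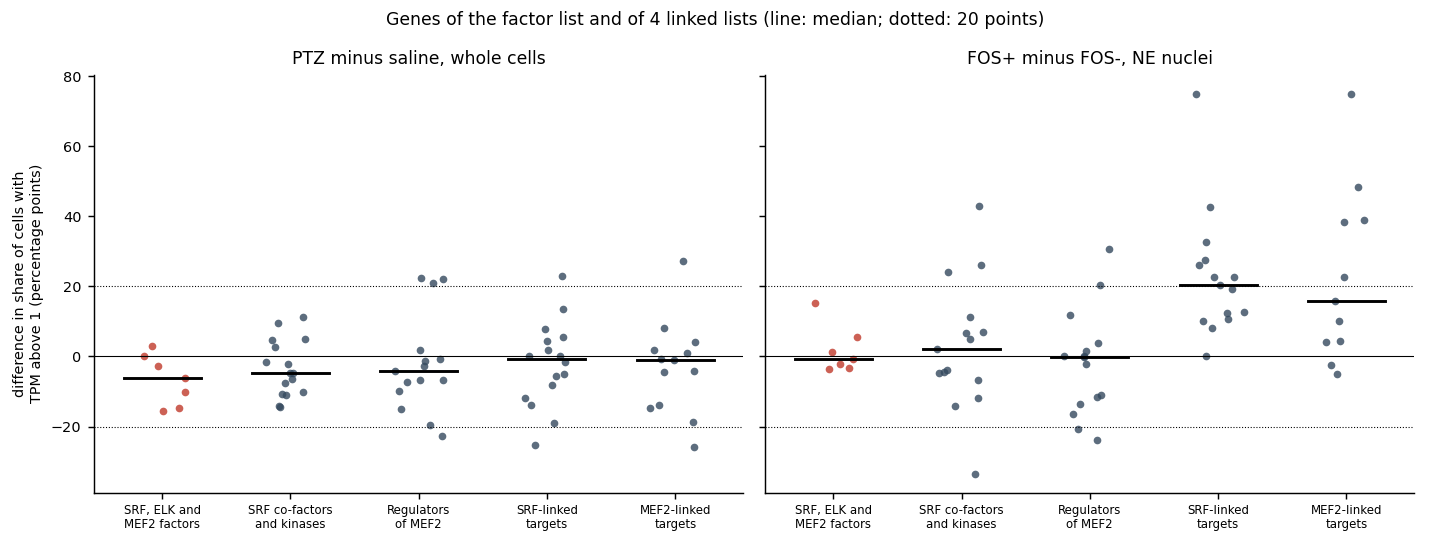
Difference in the share of cells with more than 1 TPM, in percentage points, for the 7 factors tested (red) and for genes of 4 linked lists (dark), PTZ minus saline on the left and FOS+ minus FOS- on the right, with a line at each median and dotted lines at 20 points. The factors lie between -3.66 and 15.4 points on the right, where the SRF-linked genes reach 75.1 points, and no list has its median past 20 points on the left.

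Upstream of the factors, genes lay on both sides. Among 15 measured co-factors of SRF and kinases upstream of the ternary complex factors, 5 were 2-fold higher and 3 were 2-fold lower in FOS+ nuclei (median log2 ratio 0.03). Over all genes tested the shares were 17.9% higher and 28.1% lower (median -0.20). Rps6ka3, the ERK-activated kinase RSK2, was detected in 25 FOS+ and 8 FOS- nuclei (7.64-fold higher), Map2k1, the ERK kinase MEK1, in 27 and 17 (2.12-fold) and Braf in 36 and 27 (2.49-fold). Braf and Rps6ka3 were higher in FOS+ in 4 of 4 conditions.

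Among 15 regulators of MEF2, 2 were 2-fold higher and 3 were 2-fold lower in FOS+ (median -0.32). Neither count exceeded the share over all genes, 17.9% higher and 28.1% lower (median -0.20). Sik1, a kinase that phosphorylates class IIa histone deacetylases, was detected in 25 and 13 nuclei and was 14.4-fold higher in FOS+. Cabin1, which binds calcineurin and MEF2, was detected in 11 and 21 and was 3.63-fold higher in FOS-. Some genes listed as markers of other cells also differed between the sorts. Of 5 oligodendrocyte markers, 3 were detected in FOS+ (summed level 0 to 908.4 TPM, Mog and Olig2 at 0) and 4 in FOS- nuclei (0 to 350.5 TPM, Olig2 at 0), with Mag in 23 and 14. All 4 CA pyramidal markers were detected in both sorts (0 to 2700.5 and 0 to 285.8 TPM), where Nr4a2, also an immediate-early gene, was found in 31 and 9 nuclei, Fibcd1 in 7 and 3, Wfs1 in 10 and 13 and Grik4 in 25 and 29. Of 5 microglial markers, 3 were detected in each sort (C1qa and Tmem119 at 0), with a median summed level of 4.25 TPM in FOS+ and 4.88 TPM in FOS- nuclei and a highest of 3435.7 and 51.8 TPM. Cx3cr1 was detected in 29 and 33 and P2ry12 in 4 and 5. Their part in these differences was not tested.

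In whole cells the same lists showed no such separation. Over all genes, 13.2% were 2-fold higher and 13.9% were 2-fold lower in PTZ, with a median log2 ratio of -0.04. The median log2 ratio, PTZ over saline, was 0.16 for SRF-linked genes (3 of 16 2-fold higher, 1 lower), 0.04 for MEF2-linked genes (3 of 13 and 1), 0.07 for SRF co-factors and kinases (2 of 16 and 0) and -0.05 for MEF2 regulators (1 of 15 and 1). Immediate-early RNA was present in both treatments: Fos was detected in 26 of 30 PTZ and 30 of 38 saline cells and Junb in 23 and 31. The genes past both limits were Flna, the actin cross-linker filamin A, detected in 14 PTZ and 9 saline cells (3.91-fold higher in PTZ), Pcdh10, a protocadherin, in 9 and 1 (37.4-fold, with 13 counts in saline cells), Ppp3cc, a catalytic subunit of calcineurin, in 9 and 3 (3.40-fold) and Homer1 in 8 and 20 (2.33-fold higher in saline).

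Single cells rarely held the whole set. The median number of the 8 factors detected was 4 in PTZ cells (range 1 to 7), 4.5 in saline cells (2 to 6), 3 in FOS+ (0 to 5) and FOS- nuclei (0 to 6) and 1 in HC nuclei (0 to 4). At least 1 MEF2 gene was detected in 28 of 30 PTZ and 38 of 38 saline cells, 37 of 40 FOS+, 36 of 41 FOS- and 16 of 23 HC nuclei. At least 1 ternary complex factor was detected in 26, 35, 34, 34 and 9. Of the 16 saline cells with Srf, 15 also held a ternary complex factor, as did 6 of 8 PTZ cells, 4 of 6 FOS+ and 6 of 7 FOS- nuclei.

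Mef2a, Mef2c and Mef2d were detected together in 20 of 30 PTZ cells (66.7%, 47.2 to 82.7) and 25 of 38 saline cells (65.8%, 48.6 to 80.4), but in 5 of 40 FOS+ nuclei (12.5%, 4.19 to 26.8), 12 of 41 FOS- nuclei (29.3%, 16.1 to 45.5) and 1 of 23 HC nuclei. Exactly 2 of the 3 were detected in 20 FOS+ and 10 FOS- nuclei. By condition, the nuclei with all 3 numbered 1 of 10 FOS+ and 0 of 10 FOS- at 1 µM and 1:200, 0 of 8 and 3 of 10 at 1 µM and 1:2000, 2 of 11 and 3 of 10 at 10 µM and 1:200, and 2 of 11 and 6 of 11 at 10 µM and 1:2000. The last of these was the condition of the whole cells.

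Outside HC nuclei, libraries with more genes held more of the factors. Spearman's rho between the number of factors and the number of genes detected was 0.66 in PTZ cells (n = 30), 0.52 in saline cells (n = 38), 0.50 in FOS+ nuclei (n = 40), 0.75 in FOS- nuclei (n = 41) and -0.16 in HC nuclei (n = 23). With the total count, rho was 0.24, -0.17, 0.09, 0.14 and 0.15 in the same order. These are descriptions across libraries that share a preparation.

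**Figure D5:**
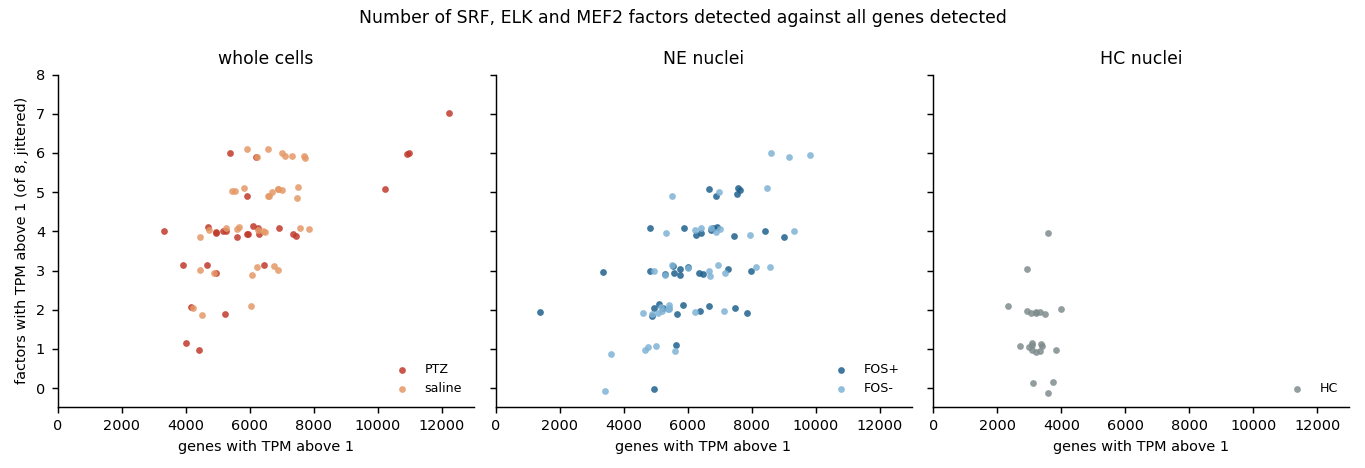
Number of the 8 factors detected (vertical, jittered) against the number of genes with more than 1 TPM (horizontal), with 1 point per library, in whole cells, NE nuclei and HC nuclei. Libraries with more genes hold more factors in the first 2 panels, the PTZ cell with 12220 genes holds 7, and HC nuclei all lie below 4000 genes.

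Correlations between the factors were weak. Within groups, for pairs in which each gene was detected in at least 30% of cells, the highest rho of log2(TPM + 1) was 0.43, between Mef2a and Mef2c in FOS- nuclei, and the lowest was -0.39, between Elk1 and Mef2a in PTZ cells. Mef2a and Mef2c had a rho of 0.07 in FOS+ nuclei and 0.35 in saline cells.

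The genes whose levels were most like those of each factor were ranked by the same measure, over 68 whole cells (8438 genes) or 81 NE nuclei (7905 genes) with detection in at least 30% of cells. For Srf in whole cells they were Ppp1r15a (rho 0.55), which encodes the stress-induced phosphatase subunit GADD34, Tiparp (0.52) and Fosb (0.52). Within saline cells these values were 0.59, 0.61 and 0.54 and within PTZ cells 0.45, 0.35 and 0.38. The median rho of Srf over all genes compared was 0.05, and its rho with the number of genes detected was 0.27.

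For Elk4 the leading gene in whole cells was Camsap1 (0.58), for Elk1 Nrsn2 (0.50), for Mef2a Nudt18 (0.48), for Mef2c Ampd2 (0.60), followed by Gsk3a (0.52) and Nr1d2 (0.51), and for Mef2d 4833439L19Rik (0.56), followed by Aldoa (0.55) and Ncdn (0.54). In NE nuclei it was Otud4 for Elk1 (0.42), Tomm20 for Mef2a (0.45) and Rnf187 for Mef2c (0.49). Among the 3 genes most like Mef2d there were Ncs1 (0.48), a neuronal calcium sensor, and Fam120a (0.47). None of these leading genes was shared between whole cells and nuclei for a given factor. Being the top of 8438 or 7905 genes, these values are high by selection.

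Several factors overlap other genes in the GENCODE annotation of GRCm38, and the libraries were not stated to keep strand, so that reads of overlapping exons cannot be assigned by strand. Srf (chr17:46548329-46556175) lies within the antisense transcript Gm26904 with 0 exonic bases in common. Elk1 (chrX:20933395-20950608) shares 76 exonic bases with Uxt on the same strand, Elk3 (chr10:93247414-93311135) 316 with Cdk17, Elk4 (chr1:132007607-132032612) 104 with Gm29103, which had 0 counts in every group, and 84 with Mfsd4a, Mef2a (chr7:67231163-67372858) 302 with Lysmd4, and Mef2d (chr3:88142372-88172086) 531 with the antisense transcript 1700113A16Rik. Mef2b (chr8:70139711-70167488) shares 62 with Borcs8. Mef2c (chr13:83504034-83667080) overlaps no annotated gene. In NE nuclei, Uxt was detected in 3 FOS+ and 4 FOS- nuclei against 28 and 30 for Elk1, whereas Cdk17 was detected in 9 of the 11 FOS+ and 7 of the 9 FOS- nuclei that held Elk3 (24 of 40 and 21 of 41 in all). The transcript 1700113A16Rik was detected in 11 FOS+ and 14 FOS- nuclei, and 9 and 12 of these also held Mef2d (20 of 40 and 22 of 41 in all).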

How the data were processed

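Reads were trimmed by the authors with Solexa-QA++ and assigned with RSEM and Bowtie 1.0.0 to mm10 with Ensembl genes, and Ensembl identifiers were given symbols with biomaRt. The deposited tables hold expected counts, which are estimated by RSEM and not normalized, and the deposited TPM values, which the authors scaled by transcript length and library. Here, whole cells and NE nuclei were kept with a total expected count over 50000 (the study counted uniquely aligned reads) and a number of genes above 1 TPM over the mean minus 2 SD of their table. The spike-in criterion of the study was not used here, and all HC nuclei were kept. No library had the same values as another. Pooled CPM is the summed expected count of a group over its summed total. A group at or under 3 counts was set to 3. The background took genes for which 5 or more of the cells kept had a rounded count of 1 or more. Labels name no animal, so edgeR tests over single cells, used by the study, were not run. The pooled ratio was checked only on simulated Poisson counts, for genes with many counts and with no added spread between cells. That check does not show how far single libraries move the ratios of the factors. Alternatives used edgeR 4.0.16 (TMM) and DESeq2 1.42.0 (size factors) on rounded group sums, with Python 3.11.15, scipy 1.17.1 and R 4.3.3. Genes named were all 8 factors, up to 4 genes per list, comparison and direction past both limits, ordered by the difference in share, and the 3 genes most like each factor, of which the leading ones are given; some genes that this rule names are not reported here. Genes with printed elements, and Fos, Prox1, Nr4a2, Grik4, Fibcd1, Wfs1, P2ry12, Klf2, Calb2, Gad1, Gad2, Slc32a1, Sst, Pvalb, Pecam1, Flt1, Tek, Cx3cr1, Mag, Uxt, Cdk17 and 1700113A16Rik, were added after their values were seen. Factors and lists were chosen with earlier results of these data known.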

Additional observations from a re-analysis of the deposited data

Results flagged for a closer look

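Libraries below the criteria were left out of every comparison, yet a few held the factors. In 14 whole cells with totals from 195 to 5318 counts, 5 detections above 1 TPM were made, of 3 factors in 4 cells, with a highest value of 2304.4 TPM for Mef2d. In 15 NE nuclei with totals from 4000 to 46086 counts there were 7 detections, of 4 factors in 4 nuclei, with a highest value of 90.1 TPM, again for Mef2d. These values stand above 0 in data that no comparison used, and were not assigned a cause.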

How the results depend on the processing

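Each group is 1 sample, so values show the spread between cells and not between animals. TMM and DESeq2 factors shifted every log2 ratio by 0.25 and 0.19 in NE nuclei and by 0.04 and 0.03 in whole cells. No paired analysis was possible because no replicate number in the labels links libraries across groups and no result comes from a test. Without the PTZ cell with the most genes, an alternative chosen after seeing the data, 0 factors were 2-fold lower in PTZ. Without the FOS+ nucleus with the fewest genes, likewise added, the counts of factors past the limits stayed at 0. Thinned to 50000 reads per cell, 1 factor was 2-fold higher and 0 lower in PTZ. In FOS+, 1 (Srf) was then 2-fold higher, 1 (Elk1) lower and 1 (Elk1) past 20 points lower, with detection at any count. With detection at 5 counts, 1 factor (Srf) was 20 points lower in PTZ and 1 (Elk1) in FOS+, and at 5 TPM 1 (Elk1) in FOS+. By mean TPM, 2 were 2-fold higher in FOS+. In PTZ the count of factors 2-fold lower stayed at 1 by mean TPM, but that factor was Srf (log2 ratio -1.66) and not Elk4 (-0.63). Leave-one-out counts ranged from 0 to 1 higher and 0 to 2 lower in PTZ, and from 0 to 1 in either direction in FOS+. Within conditions, factors 2-fold higher and lower in FOS+ numbered 4 and 2 (1 µM, 1:200), 1 and 1 (1 µM, 1:2000), 0 and 4 (10 µM, 1:200) and 0 and 1 (10 µM, 1:2000). Those past 20 points higher and lower numbered 3 and 1 in the first and 1 and 1 in the third. With genes detected in at least 20% of cells, the background for PTZ was 7.42% 2-fold higher and 8.06% lower. The other 93 values for these counts, shares and lists stayed within 1.5 times or the interval. Of the values for single factors, 84 moved and 195 did not. A reversal was scored only for a value past its limit, here the Elk4 ratio in whole cells, which did not reverse. Signs of smaller values did change: the FOS+ to FOS- log2 ratio of Srf went from 0.52 to -3.96 at 1 µM and 1:2000. The cause of these moves was not tested. In HC nuclei with 0 to 11 detections per factor, depth limits what a share can show.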
